A study of Vitis vinifera with 36 samples.

Results

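Of 28119 genes listed in any library of grape berries (Vitis vinifera), 40 had lower transcript levels in the winter crop than in the summer crop in both cultivars and at all 3 ripening stages studied, and these 40 genes are described here. A gene was included when its mean in the summer group was at least 2 times its mean in the winter group, each mean taken as FPKM plus 0.1, in all 6 combinations of cultivar and stage. Its summer mean also had to reach 2 FPKM in all 6. FPKM counts fragments relative to transcript length and library size, so levels of different genes can be set side by side on it. The genes were thus chosen by their winter and summer levels, which are given below as a description, without a test and in support of nothing. The tests below concern comparisons that the rule did not make: the course from the start to the end of ripening and the difference between cultivars, each within a crop. The levels that enter them are those the rule used, so they are not wholly apart from the choice. How the gap between crops differed between cultivars or stages rests on the very ratios the rule used and is given as a description.

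The berries came from vines of the cultivars Muscat Superior and Victoria, 7 years old in 2014, on an unnamed rootstock under a rain shelter in subtropical southern China. In each cultivar the winter crop and the summer crop were sampled at stages E-L 35, E-L 36 and E-L 38 of the modified Eichhorn-Lorenz scale, with 3 libraries in each of the 12 groups. Both crops came from vines that had been pruned and forced into growth with hydrogen cyanamide, at 2.5 to 3% for the summer crop; before the winter crop the leaves were also removed by hand. RNA was taken from the skin and flesh of 50 berries per biological replicate, without seeds. Crop, calendar season, weather, the preceding treatment of the vine and the sampling date go together in this design, and their parts in any winter to summer difference cannot be told apart.

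Double cropping makes a vine that would bear in summer bear again in the cool season. Stage E-L 35 marks the onset of veraison, when a berry softens, begins to take up sugar and, in coloured cultivars, to form pigment, E-L 36 is an intermediate stage, and E-L 38 is harvest ripeness. Large sets of transcripts change over this course, and genes that arose by tandem duplication often lie side by side on a chromosome, where near-identical copies can share sequencing reads. Gene identifiers carry the chromosome in the digits after VIT_2, but the sources used here give them no names or functions. Genes are therefore named by identifier, and neither the pathway lists nor the markers of seed, xylem and epidermis that had been planned could be counted. The labelled tissue was not checked for the same reason. In bulk tissue, fewer cells of a type and less RNA per cell cannot be told apart.

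Library totals of estimated counts had a median of 10599908 and a range of 5624449 to 18606068, and 21184 to 23569 genes were listed in a library. Across 3 libraries the labels and the profiles disagreed in part. Replicate 1 of summer Victoria at E-L 36 correlated with a library of E-L 38 at 0.983, above its best value within its own group of 0.952 (Pearson, log2 values across genes, a description). Replicate 1 of summer Victoria at E-L 38 correlated at 0.9784 with a library of E-L 36 and at 0.9782 within its own group, and replicate 1 of summer Muscat Superior at E-L 36 at 0.979 with a library of E-L 38 and at 0.972 within its own group. An exchange of the first 2 with each other is possible and was not tested; they were kept as labelled, and if they were exchanged, the summer Victoria means and ratios at E-L 36 and E-L 38 would stand for mixed stages. These 2 matter for several of the 40 genes, and part of the results that rest on them are given with and without them. Others are given only with them, among them the stage of the highest mean, the cultivar ratios by stage, the replicate spread and the tests of run sums. The labels call the replicates biological. Even so, 8 of 18 pairs of winter replicates were near-identical, with a chi-square below 2 for each degree of freedom of their counts, while 0 of the 18 summer pairs were. P-values measure the spread between these libraries, which may be technical in those winter groups.

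Levels of the 40 genes covered a wide range in both crops. The median gene averaged 6.70 FPKM over the 6 winter groups and 42.3 FPKM over the 6 summer groups. In Muscat Superior the median winter level was 8.20, 4.05 and 4.88 FPKM at E-L 35, E-L 36 and E-L 38, against 27.2, 31.8 and 37.9 FPKM in summer. In Victoria it was 14.4, 3.92 and 4.90 FPKM in winter, against 68.8, 38.1 and 37.1 FPKM in summer. The median summer to winter ratio was 2.66 at E-L 35, 5.05 at E-L 36 and 6.57 at E-L 38 in Muscat Superior, and 4.26, 7.51 and 5.93 at the same stages in Victoria. The onset of veraison was thus where the gap was narrowest for most of these genes: 19 genes had their lowest ratio of all 6 in Muscat Superior at E-L 35 and 12 in Victoria at E-L 35. That stage of Muscat Superior was also the most restrictive condition, since 1.66% of the 12562 genes past the summer floor were at least 2-fold lower in winter there, against 7.58 and 11.8% at E-L 36 and E-L 38 in Muscat Superior and 6.19, 12.6 and 13.9% at the 3 stages in Victoria. In all 6 combinations together, 0.318% of them were.

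**Figure D1:**
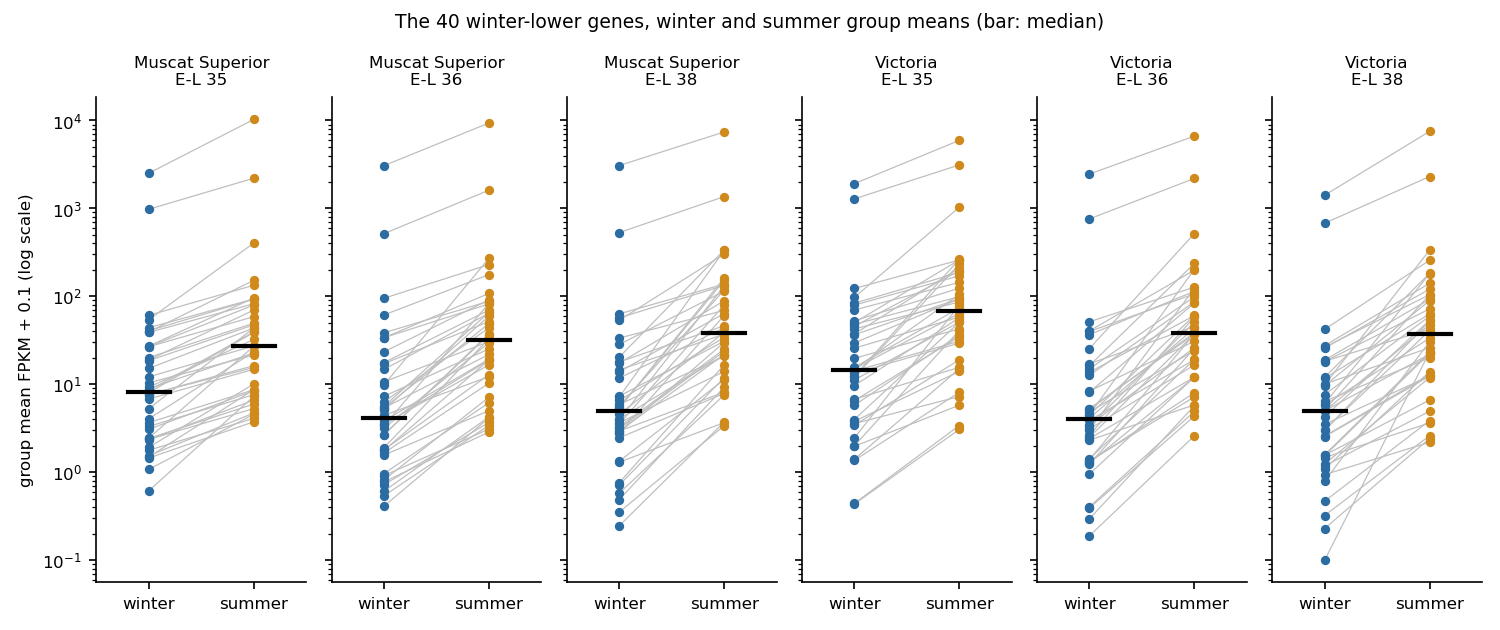
Group mean levels of the 40 genes, as FPKM plus 0.1 on a log axis, in winter and summer for each cultivar and stage; each point is a gene, a line joins its winter and summer means, and the bar is the median of the 40. Every line rises to summer, as the choice of genes requires, and the medians of the 2 crops lie closest in Muscat Superior at E-L 35, at 8.20 and 27.2 FPKM.

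The ratios of single genes ran far past the minimum. At E-L 35, 7 genes in Muscat Superior and 17 in Victoria were more than 5 times lower in winter, and at E-L 38, 24 and 25 were. Ratios above 10 were reached by 14 genes in Muscat Superior and 13 in Victoria at E-L 38. These counts come from the ratios that chose the genes and were not set against all genes, so nothing is read from them. In Victoria at E-L 38 they include the summer library numbered 1 that resembled another stage. All winter libraries lay below all summer libraries of the same cultivar and stage for 38, 36 and 39 genes at E-L 35, E-L 36 and E-L 38 in Muscat Superior, where this held for 24.9, 23.7 and 36.4% of all genes past the floor. In Victoria it held for 38, 34 and 32 genes, and for 34.2, 32.5 and 30.5% of all genes past the floor. For 26 of the 40 the groups did not overlap in any of the 6 combinations, as for 3.31% of all genes past the floor; the choice of the genes used the same contrast, so nothing is read from these shares. Without the 2 summer Victoria libraries numbered 1 at E-L 36 and E-L 38 that count was 27.

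The widest minimum gap belonged to VIT_213s0019g02840 on chromosome 13, whose ratio never fell below 4.73. In winter Muscat Superior its 9 libraries ran from 0 to 5.61 FPKM with a median of 0.92, against 2.69 to 26.7 FPKM with a median of 15.2 in summer. In Victoria they ran from 0.65 to 23.7 FPKM in winter, median 2.10, and from 4.94 to 106 FPKM in summer, median 19.8. Within each of the 6 combinations its winter and summer libraries did not overlap, although E-L 35 winter Victoria berries, at 23.7, 9.16 and 13.6 FPKM, held more of it than E-L 36 summer Muscat Superior berries, at 3.15, 2.69 and 4.94 FPKM.

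VIT_200s0189g00050, on a sequence not placed on a chromosome, had ratios between 4.64 and 9.62 in the 6 combinations. At E-L 38 it had 2.18, 4.49 and 5.10 FPKM in winter Muscat Superior, against 18.9, 23.3 and 22.1 FPKM in summer. VIT_215s0046g03550 on chromosome 15 stood at the low end of expression, with winter libraries between 0.07 and 1.31 FPKM and summer libraries between 1.5 and 4.52 FPKM over both cultivars. VIT_213s0019g00860 on chromosome 13 had a smallest ratio of 3.48 and a median ratio of 20.8. It had 5.72, 4.13 and 6.04 FPKM in winter Muscat Superior at E-L 38, against 143, 146 and 166 FPKM in summer. VIT_204s0008g01590 and VIT_204s0008g01550, with smallest ratios of 4.05 and 3.14, belong to the run on chromosome 4 described below.

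Among the 40, a few genes were abundant. VIT_201s0011g05110 on chromosome 1 had the highest level, on average 2409 FPKM over the winter groups and 7858 FPKM over the summer groups. At E-L 38 it had 3377, 2724 and 3123 FPKM in winter Muscat Superior, against 7302, 7686 and 7231 FPKM in summer. In Victoria at that stage it had 785, 1730 and 1729 FPKM in winter, against 7852, 7603 and 7066 FPKM in summer, so the winter libraries lay below the summer ones and replicate 1 was the lowest of them. VIT_205s0020g01170 on chromosome 5 averaged 2135 FPKM in summer, with ratios between 2.25 and 3.39. The next genes by summer mean were VIT_218s0089g01270 with 396 FPKM, VIT_204s0008g01490 with 211, VIT_214s0006g00180 with 200 and VIT_201s0011g05140 with 199 FPKM. VIT_218s0089g01270 on chromosome 18 showed the largest ratio in Muscat Superior, 46.5 at E-L 38, where it had 6.92, 6.47 and 7.79 FPKM in winter, against 330, 301 and 368 FPKM in summer.

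At the edge of the rule, VIT_210s0003g03810 was included with a smallest ratio of 2.0278 in Muscat Superior at E-L 35, VIT_218s0001g06180 with 2.0279 and VIT_204s0008g01480 with 2.03, both in Victoria at E-L 35. Just outside, VIT_207s0005g01320 had 1.99 in Muscat Superior at E-L 36, and VIT_216s0098g00560 and VIT_214s0108g01320 had 1.99 and 1.98 in Muscat Superior at E-L 35. By the summer floor, the last genes included were VIT_213s0019g02770, VIT_215s0046g03550 and VIT_218s0001g01470 with lowest summer means of 2.10, 2.33 and 2.51 FPKM. The nearest genes left out for a low summer mean were VIT_202s0025g00360, VIT_202s0154g00580 and VIT_201s0010g02940 with 1.99, 1.89 and 1.71 FPKM. The list is therefore open at its edges: 19 of the 40 genes remained whichever of the 36 libraries was left out.

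The summer Victoria libraries that resembled another stage decided part of the list. At E-L 36, replicate 1 lay above both other libraries for 24 of the 40 genes and below both for 13. At E-L 38, replicate 1 lay below both others for 23 genes and above both for 12, and 22 genes showed the pattern of being above at E-L 36 and below at E-L 38. Without these 2 libraries the same rule found 34 genes, 33 of them among the 40. The median ratio in Victoria was then 5.69 at E-L 36 and 7.27 at E-L 38, and 6 of the 40 genes had a ratio under 2 at E-L 36.

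The 7 genes that dropped out were 5 of the run on chromosome 4 and 2 others. VIT_219s0085g01050 had 2.35, 2.24 and 2.09 FPKM in winter Victoria at E-L 36, against 15.2, 1.28 and 0.74 FPKM in summer. Replicate 1 alone lifted the summer mean above winter, and without it the ratio was 0.477. VIT_213s0019g02770 kept a smallest ratio of 2.14 but had a summer mean of 0.77 FPKM at E-L 36. For VIT_204s0008g01490 the smallest ratio was then 0.918, for VIT_204s0008g01570 1.04, for VIT_204s0008g01550 1.05, for VIT_204s0008g01480 1.35 and for VIT_204s0008g01510 1.48.

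The 40 genes were not spread evenly along the genome. In the order of gene identifiers, 9 of them, or 22.5%, had another of the 40 as the next listed gene. Of the 43 adjacent genes that passed the summer floor, 10 (23.3%) were among the 40, against 0.318% of all genes past the floor. The 67 genes that were at least 2-fold higher in winter by the mirrored rule also lay next to each other, with 17.9% of their adjacent genes among them, against 0.55% of all genes past the winter floor. Chromosome 4 held 17.5% of the 40 genes and 5.52% of all genes past the summer floor, and chromosome 13 held 15% of the 40 and 5.57% of all. Unplaced sequence and chromosome 18 held 4 genes each, and chromosome 16 held 0. No difference in these shares was tested. They were not recomputed without the 2 summer Victoria libraries numbered 1. Most of the genes on chromosome 4 then left the list, as did VIT_213s0019g02770 on chromosome 13. The shares therefore rest in part on those libraries. Shared reads, given below for the runs, can also tie the levels of neighbours together.

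Neighbours formed 3 runs with 13 of the 40 genes, a run being genes with at most 2 other listed genes between them. The longest run spanned 11 listed genes on chromosome 4, VIT_204s0008g01480 to VIT_204s0008g01590, and 7 of them were among the 40. The other 4 listed genes between them also averaged less in winter than in summer. VIT_204s0008g01520, the highest of these, averaged 113 FPKM over the winter groups and 396 FPKM over the summer groups and passed the ratio in 4 of the 6 combinations. Beyond the ends of the run, VIT_204s0008g01470 averaged 3.01 FPKM in winter and 2.34 FPKM in summer. VIT_204s0008g01610 averaged 10.9 FPKM in winter and 0.515 FPKM in summer, but passed the ratio in 2 of the 6 combinations. Its lowest summer to winter ratio, 0.00227, was in Muscat Superior at E-L 36. VIT_204s0008g01455, with 0.0306 and 0.0106 FPKM, and VIT_204s0008g01620, with 0.0217 and 0 FPKM, also averaged more in winter. VIT_204s0008g01460, with 6.41 and 7.40 FPKM, and VIT_204s0008g01640, with 0.169 and 0.428 FPKM, averaged less in winter. Without the 2 summer Victoria libraries numbered 1, only VIT_204s0008g01580 and VIT_204s0008g01590 of this run stayed on the list.

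On chromosome 13 the run was VIT_213s0019g02770, VIT_213s0019g02780, VIT_213s0019g02840 and VIT_213s0019g02850, with 2 other listed genes between them. Of these, VIT_213s0019g02820 averaged 0.372 FPKM in winter and 3.22 FPKM in summer and passed the ratio in 5 of 6 combinations, while VIT_213s0019g02810 averaged 1.38 FPKM in winter and 1.5 FPKM in summer. Beside this run, VIT_213s0019g02730 averaged 7.12 FPKM in winter and 15.9 FPKM in summer. VIT_213s0019g02740 averaged 2.32 and 9.22 FPKM and passed the ratio in 5 of 6 combinations. VIT_213s0019g02860 and VIT_213s0019g02865 also averaged less in winter. Winter was higher for VIT_213s0019g02760, with 0.632 and 0.491 FPKM, and VIT_213s0019g02870, with 0.413 and 0.27 FPKM. The run on chromosome 1 was VIT_201s0011g05110 and VIT_201s0011g05140, and both genes between them were listed at under 0.1 FPKM on average.

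**Figure D2:**
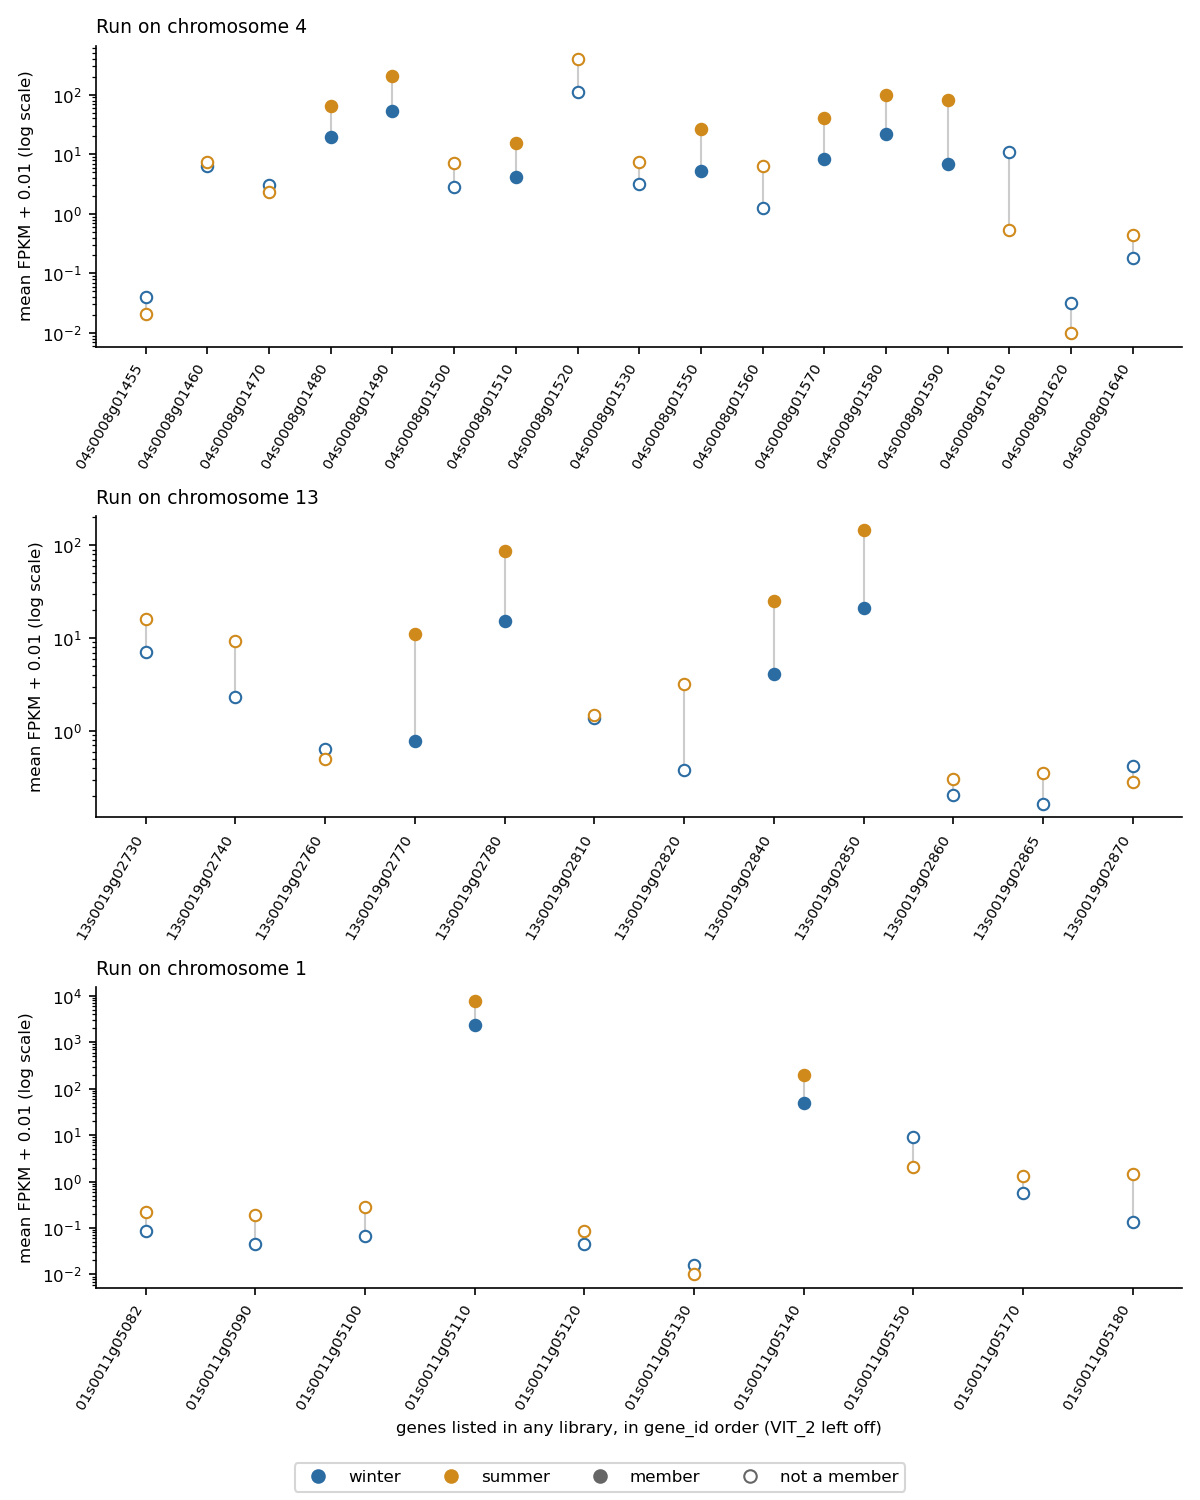
Mean level over the 6 winter groups and the 6 summer groups, as FPKM plus 0.01 on a log axis, of the genes in and beside each run, in the order of their identifiers; filled points are among the 40 genes, open points are not. On chromosome 4 all 11 genes of the run lie lower in winter, and VIT_204s0008g01470 and VIT_204s0008g01610 beside it lie higher in winter. VIT_204s0008g01460 and VIT_204s0008g01640, also beside it, lie lower in winter.

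In sum over its 7 genes, the run on chromosome 4 had 102, 82.3 and 119 FPKM in winter Muscat Superior at E-L 38, against 752, 644 and 777 FPKM in summer. At E-L 35 the sums were 93.6, 85.1 and 92.0 FPKM in winter Muscat Superior, against 447, 372 and 266 FPKM in summer. The winter libraries of Muscat Superior lay below the summer libraries at both stages; at E-L 36, with 63.4, 56.6 and 26.2 FPKM in winter against 373, 62.8 and 248 FPKM in summer, replicate 2 of summer lay just below the highest winter library. In Victoria at E-L 36 the run had 76.4, 81.1 and 72.5 FPKM in winter, against 1159, 109 and 104 FPKM in summer. At E-L 38 it had 194, 47.3 and 50.4 FPKM in winter Victoria, against 90.7, 669 and 852 FPKM in summer. Replicate 1 of both summer groups thus stood far from its partners, in opposite directions, and replicate 1 of the winter group at E-L 38 overlapped the summer range.

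The sums of the run on chromosome 13 followed the same libraries. They were 13.8, 8.91 and 12.9 FPKM in winter Muscat Superior at E-L 38, against 326, 328 and 263 FPKM in summer. In Victoria at E-L 36 they were 9.11, 8.04 and 8.83 FPKM in winter, against 661, 102 and 92.9 FPKM in summer, and at E-L 38 they were 26.9, 6.61 and 6.87 FPKM in winter, against 80.1, 279 and 389 FPKM in summer. For this run, unlike that on chromosome 4, winter lay below summer in every library of each combination, with or without replicate 1. The pair on chromosome 1 summed to 3435, 2775 and 3185 FPKM in winter Muscat Superior at E-L 38, against 7434, 7819 and 7365 FPKM in summer.

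**Figure D3:**
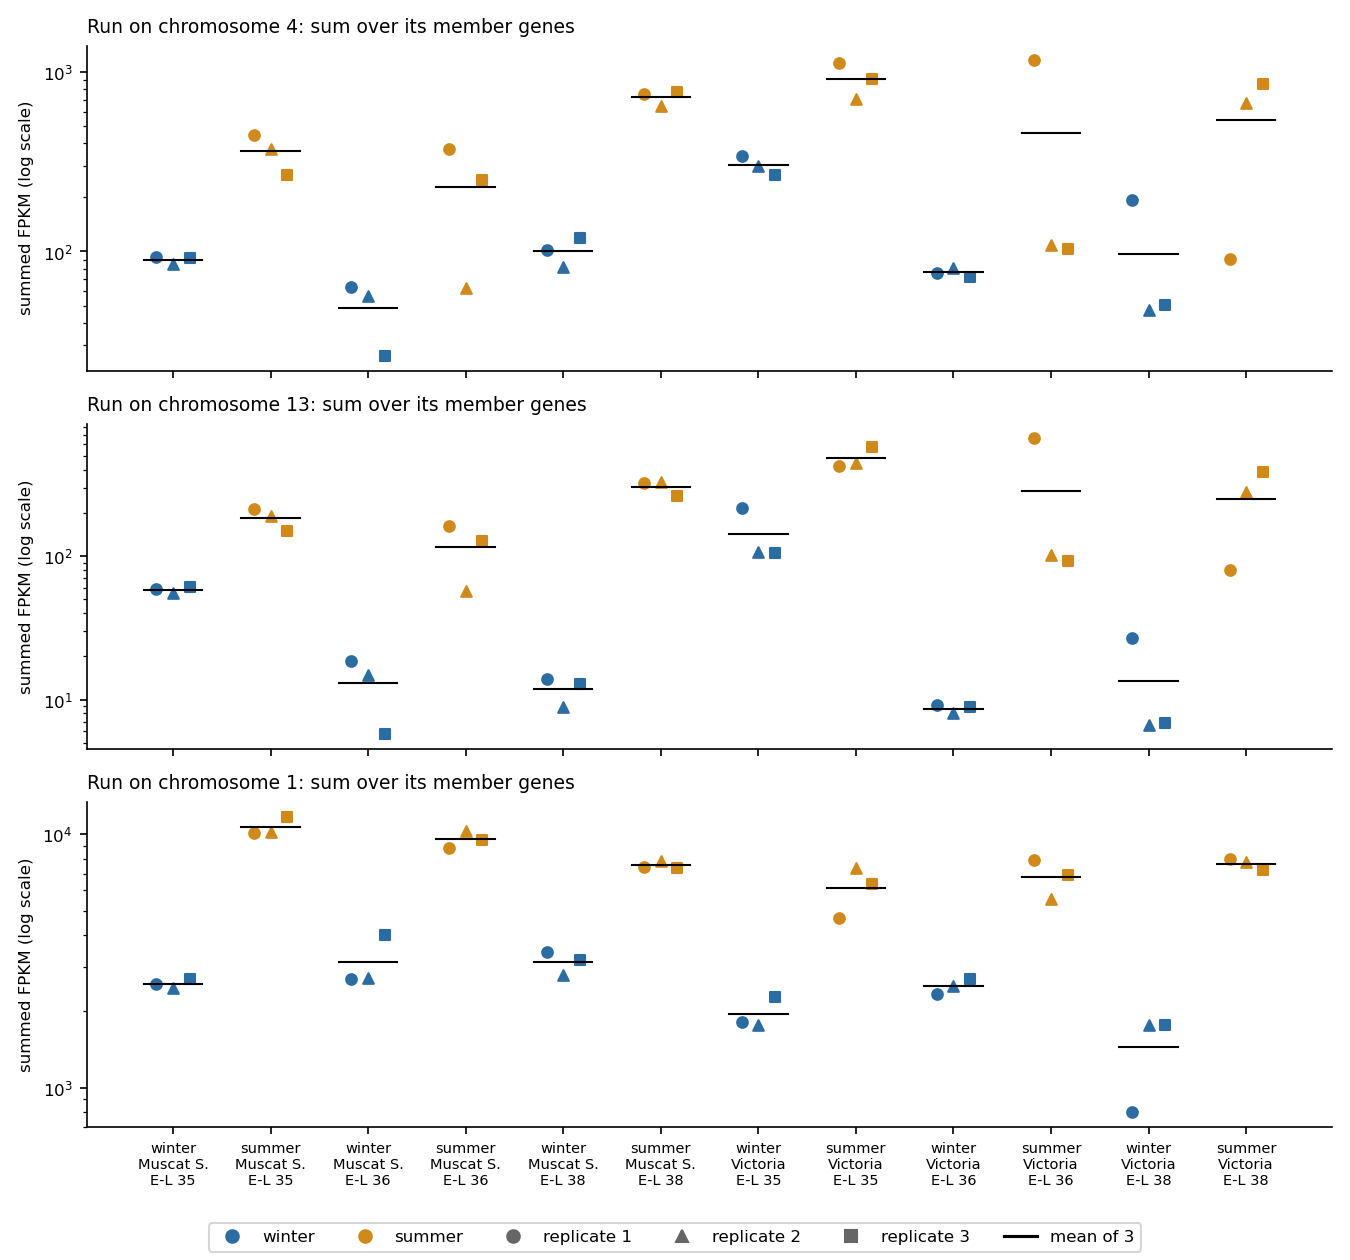
Summed FPKM of the genes of each run that are among the 40, on a log axis, in every library; circles, triangles and squares are replicates 1, 2 and 3 and the line is the mean of 3. In summer Victoria the circles stand at 1159 FPKM at E-L 36 and 90.7 FPKM at E-L 38 for chromosome 4, far from the other 2 replicates of each group.

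The 40 genes shared features that the rule did not use. A single transcript was listed for 37 of them (92.5%), against 51.6% of the genes past the summer floor and 71.6% of the 67 winter-higher genes. Their transcripts were short, with a median of 786.5 bases, against 1838 bases for genes past the floor and 1485 bases for the winter-higher genes. Transcripts under 1000 bases made up 67.5% of the 40, against 17.5% and 28.4% in those sets. Reads were often shared between similar genes: for 19 of the 40 (47.5%) counts were whole numbers in fewer than 80% of the libraries, against 21.5% of the genes past the floor. In the runs this held for 12 of 13 genes, so that the counts of the single genes there are uncertain, while outside the runs it held for 7 of 27. The sums of a run pool reads only among its genes on the list. They do not remove this uncertainty, since other genes between them also shared reads. VIT_204s0008g01520, with 396 FPKM in summer and whole counts in 2.78% of the libraries, is in no sum. These shares were not tested, since neighbouring and similar genes are not independent.

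Replicates varied more for these genes than for all genes past the summer floor, a set not matched to them for level or transcript length. The median gene averaged 6.70 FPKM over the winter groups among the 40 and 14.3 FPKM in that set. The median length was 786.5 against 1838 bases. The part of level and length in the spread was not tested. The median coefficient of variation of the 40 was above that of all genes past the floor in each of the 12 groups. It was 11.3, 35.9 and 20.8% at E-L 35, E-L 36 and E-L 38 in winter Muscat Superior, where all genes had 5.94, 11.6 and 9.93%, and 14.8, 38.4 and 14.4% in summer, where all genes had 6.24, 14.7 and 10.0%. In Victoria it was 37.8, 18.5 and 56.9% in winter, where all genes had 12.4, 6.0 and 12.1%, and 21.4, 52.9 and 42.5% in summer, where all genes had 8.61, 15.5 and 12.95%.

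The course of ripening was tested as harvest ripeness over veraison onset, separately by cultivar and crop (edgeR, Benjamini-Hochberg adjusted p below 0.05 over 19736 genes). In winter the genes fell or did not pass, and in summer both directions occurred. Setting the winter course against the summer course gives the change of the gap between stages described below. That contrast rests on the ratios that chose the genes, so nothing is read from the difference between the crops here. In winter Muscat Superior 13 of the 40 fell and 0 rose (26 of 40 had a log2 fold change below 0), where 46.2% of all genes tested were called, 23.6% lower and 22.6% higher. In summer Muscat Superior 5 fell and 7 rose, where 34.1% of all genes were called, 17.7% lower and 16.4% higher. In winter Victoria 23 fell and 0 rose, where 51.6% of all genes were called, 26.9% lower and 24.7% higher. In summer Victoria 9 fell and 4 rose, where 42.9% of all genes were called, 22.1% lower and 20.8% higher.

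Of the 40 genes 57.5% were thus lower in winter Victoria, against 26.9% of all genes tested. The rule used the same winter levels, and the genes tested did not all have to reach the summer floor. The shares of all genes beside these courses are therefore no fair measure for the 40. No gene rose in either winter course with edgeR, also at an unadjusted p below 0.05 (0 and 0 genes); DESeq2 called 1 in winter Victoria and 0 in winter Muscat Superior, and limma 0 in both. The median log2 fold change of the 40 was -0.42 in winter Muscat Superior and 0.46 in summer Muscat Superior, -1.40 in winter Victoria and -0.35 in summer Victoria, while that of all genes lay between -0.04 and 0.01. In winter Victoria 39 of 40 values were below 0, of which 23 passed. In winter 11 genes (of 40) fell in both cultivars, where 17.1% of all genes tested did. Without the 2 summer Victoria libraries 10 genes fell and 4 rose in summer Victoria. That setting changes only the shared spread and scaling of the other contrasts, and there 15 fell and 2 rose in winter Muscat Superior, 6 fell and 12 rose in summer Muscat Superior, and 26 fell and 0 rose in winter Victoria. With near-identical libraries summed, 6 genes fell in winter Muscat Superior and 18 in winter Victoria. The count in winter Muscat Superior was 6 without winter replicate 1 at E-L 35 or replicate 2 at E-L 38, and 8 without replicate 3 at E-L 38. With limma on log2(FPKM + 0.1), a scale without TMM factors, 15 genes fell in summer Victoria. There the median of all genes shifted to -0.31, and 22.1% of the calls over all genes were higher, against 48.5% in edgeR. In winter Muscat Superior 38.2% of the calls were higher on that scale, against 48.9% in edgeR.

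**Figure D4:**
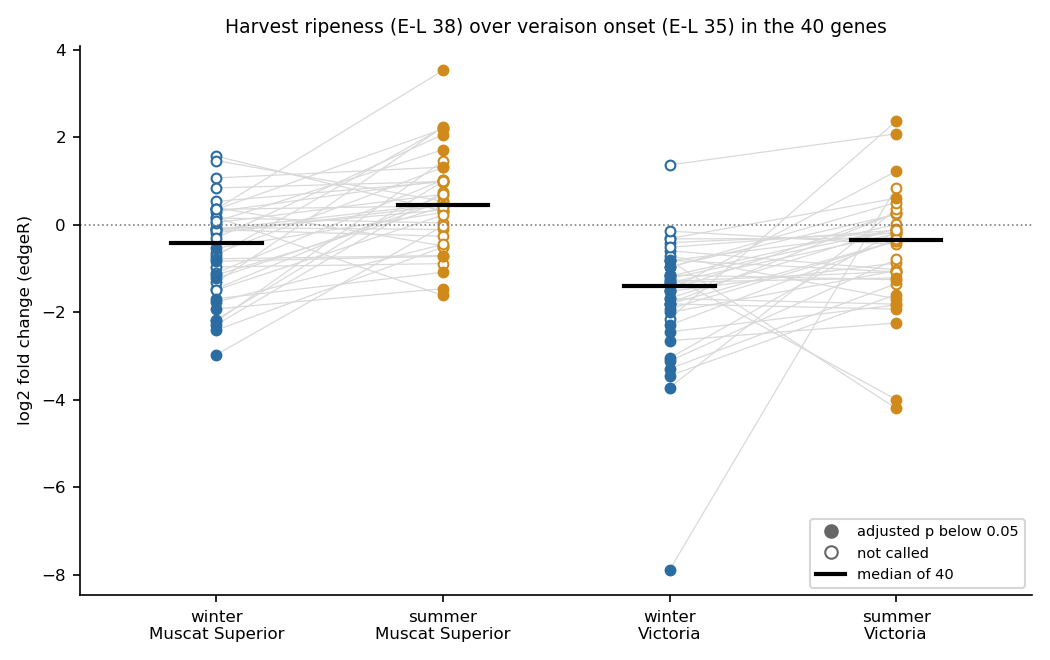
Log2 fold change of harvest ripeness (E-L 38) over veraison onset (E-L 35) from edgeR for the 40 genes, by cultivar and crop; filled points have an adjusted p below 0.05, the bar is the median and lines join a gene's winter and summer values. The medians are -0.42 and 0.46 in Muscat Superior and -1.40 and -0.35 in Victoria, winter before summer; the value near -8 rests on a group with 0 counts.

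The 2 genes that fell in all 4 courses, as 3.85% of all genes tested did, were VIT_213s0067g01980 and VIT_218s0001g08340; 0 rose in all 4, where 2.98% of all genes did. VIT_213s0067g01980 on chromosome 13 had 12.5, 10.2 and 12.5 FPKM at E-L 38 in winter Muscat Superior, against 41.1, 38.9 and 42.0 FPKM at E-L 35, and 3.03, 6.38 and 5.33 FPKM at E-L 38 in winter Victoria, against 28.8, 34.3 and 25.35 FPKM at E-L 35. In summer it had 43.8, 57.3 and 30.55 FPKM at E-L 38 in Muscat Superior, against 88.7, 92.9 and 96.9 FPKM at E-L 35, and 28.3, 26.85 and 10.5 FPKM at E-L 38 in Victoria, against 119, 90.1 and 72.1 FPKM at E-L 35. The stages did not overlap in any of the 4. Its log2 fold changes were -1.69 (SE 0.30, adjusted p = 3.71e-05, edgeR) in winter and -1.08 (SE 0.27, adjusted p = 0.00312, edgeR) in summer Muscat Superior. In Victoria they were -2.45 (SE 0.33, adjusted p = 7.63e-07, edgeR) in winter and -1.83 (SE 0.28, adjusted p = 9.87e-06, edgeR) in summer, or -2.07 without the 2 summer Victoria libraries numbered 1.

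VIT_218s0001g08340 on chromosome 18 was much lower in abundance. It had 1.36, 1.17 and 1.09 FPKM at E-L 38 in winter Muscat Superior, against 2.91, 2.16 and 1.93 FPKM at E-L 35, and 5.42, 6.58 and 7.67 FPKM at E-L 38 in summer Victoria, against 24.5, 15.1 and 17.2 FPKM at E-L 35. Its stages did not overlap in any of the 4 courses. The log2 fold changes were -0.83 (SE 0.28, adjusted p = 0.0155, edgeR) and -1.25 (SE 0.21, adjusted p = 2.89e-05, edgeR) in these courses. In Muscat Superior its calls were lost with some single libraries left out, in 3 settings in winter and 2 in summer. The winter call there was also lost with near-identical libraries summed, at a log2 fold change of -0.83.

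The 3 genes that rose in summer in both cultivars were VIT_214s0006g00180, VIT_211s0052g01190 and VIT_218s0001g06180, where 8.51% of all genes tested rose in both, and 0 of them passed as higher in winter. VIT_214s0006g00180 on chromosome 14 had 342, 330 and 335 FPKM at E-L 38 in summer Muscat Superior, against 73.9, 80.03 and 85.2 FPKM at E-L 35, and 166.6, 181.6 and 199 FPKM at E-L 38 in summer Victoria, against 96.75, 89.5 and 96.8 FPKM at E-L 35. All libraries of the later stage were higher. In winter it had 21.6, 18.4 and 20.9 FPKM at E-L 38 in Muscat Superior, against 24.6, 26.9 and 28.95 FPKM at E-L 35, and 7.28, 13.4 and 15.2 FPKM at E-L 38 in Victoria, against 25.25, 30.5 and 53.8 FPKM at E-L 35, so that the later stage was lower in both cultivars. The log2 fold changes were 2.07 (SE 0.28, adjusted p = 2.53e-06, edgeR) and 1.23 (SE 0.27, adjusted p = 6.64e-04, edgeR) in summer Muscat Superior and summer Victoria. In winter they were -0.30 (adjusted p = 0.412, edgeR) in Muscat Superior and -1.49 (SE 0.30, adjusted p = 1.44e-04, edgeR) in Victoria. It was the only gene of the 40 called lower in winter and higher in summer within a cultivar.

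VIT_211s0052g01190 on chromosome 11 had 78.9, 55.4 and 47.3 FPKM at E-L 38 in summer Muscat Superior, against 2.68, 4.84 and 8.13 FPKM at E-L 35, and a log2 fold change of 3.53 (SE 0.52, adjusted p = 8.25e-06, edgeR). In summer Victoria it had 65.6, 37.8 and 53.7 FPKM at E-L 38, against 9.01, 13.7 and 22.2 FPKM at E-L 35, and a log2 fold change of 2.08 (SE 0.47, adjusted p = 8.59e-04, edgeR). In winter it stayed between 1.77 and 2.98 FPKM in Muscat Superior and between 0.43 and 3.94 FPKM in Victoria at these stages, and neither course passed (adjusted p = 0.695 and 0.157, edgeR). Its counts were whole numbers in 2.78% of the libraries, so reads were shared with a similar gene.

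VIT_218s0001g06180 on chromosome 18 had 24.2, 46.9 and 18.3 FPKM at E-L 38 in summer Muscat Superior, against 6.74, 5.29 and 7.58 FPKM at E-L 35, and a log2 fold change of 2.19 (SE 0.56, adjusted p = 0.00326, edgeR). In summer Victoria it had 29.4, 20.7 and 41.35 FPKM at E-L 38, against 6.06, 6.77 and 8.71 FPKM at E-L 35, and a log2 fold change of 2.37 (SE 0.55, adjusted p = 0.00109, edgeR). The stages did not overlap in summer. In winter Victoria, with 0, 0.66 and 1.42 FPKM at E-L 38 against 0.99, 0.61 and 8.87 FPKM at E-L 35, they did, and its adjusted p of 0.0538 (edgeR) did not pass. All 3 genes peaked in replicate 1 of summer Muscat Superior at E-L 36, which stood apart from its group: it had 452, 161 and 63.3 FPKM of VIT_214s0006g00180, VIT_211s0052g01190 and VIT_218s0001g06180, against at most 195, 45.2 and 14.75 FPKM in replicates 2 and 3.

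Over the 3 stages, the highest mean lay at E-L 35 for most of the genes in both crops of Victoria and in winter Muscat Superior. The highest of the 3 winter means was at E-L 35 for 24 genes in Muscat Superior (60%, against 44.1% of all genes past the floor) and for 37 in Victoria (92.5%, against 47.1%). In summer it was at E-L 35 for 10 genes in Muscat Superior (25%, against 42.1% of all genes past the floor) and for 31 in Victoria (77.5%, against 58.85%), and at E-L 38 for 20 genes in Muscat Superior (50%, against 46.1% of all genes past the floor) and 3 in Victoria (7.5%, against 17.3%).

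The runs were also tested as sums; the difference between runs was not tested. As summed features in the edgeR fit, the run on chromosome 13 fell from the onset of veraison to harvest in winter, by a log2 fold change of -2.19 (SE 0.66, adjusted p = 0.00754, edgeR) in Muscat Superior and -3.40 (SE 0.67, adjusted p = 1.30e-04, edgeR) in Victoria, and in summer neither cultivar passed (adjusted p = 0.346 and 0.381, edgeR). The run on chromosome 4 passed in none of the 4 courses; its largest change was -1.46 (SE 0.69, adjusted p = 0.0769, edgeR) in winter Victoria, where replicate 1 at E-L 38 had 194 FPKM and the other libraries 47.3 and 50.4 FPKM. The sum of the pair on chromosome 1 rose in summer Victoria by 0.58 (SE 0.23, adjusted p = 0.0452, edgeR). VIT_201s0011g05110 made up 7507 of its 7648 FPKM at E-L 38. Alone that gene gave 0.61 (SE 0.23, adjusted p = 0.0362, edgeR), while VIT_201s0011g05140 gave -0.31 and did not pass (adjusted p = 0.278, edgeR).

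The cultivars were compared as Muscat Superior against Victoria, averaged over the 3 stages, within each crop. In winter 9 of the 40 genes were higher and 5 lower in Muscat Superior, where 48.3% of all genes tested were called, 24.5% higher and 23.8% lower. In summer 6 were higher and 11 lower, where 58.9% of all genes were called, 28.9% higher and 30% lower. Of the 40, 35% were thus called in winter and 42.5% in summer, below the shares of all genes. The genes tested were not matched to the 40 for level, transcript length or replicate spread, so nothing is read from this. The median log2 difference of the 40 was -0.12 in winter and -0.28 in summer. In both crops 5 genes were higher in Muscat Superior and 3 lower, where 16.2 and 15.8% of all genes tested were. Without the 2 summer Victoria libraries 7 were higher and 10 lower in summer, and 9 higher and 10 lower in winter. With near-identical libraries summed, 8 were higher and 1 lower in winter. The number lower in winter was also 1 without replicate 1 of winter Victoria at E-L 38. On log2(FPKM + 0.1) 33.4% of the calls over all genes in summer were higher in Muscat Superior, against 49.1% in edgeR, and the median of all genes shifted to -0.12.

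VIT_217s0000g00770 on chromosome 17 was higher in Muscat Superior in both crops. Its winter libraries ran from 0.95 to 4.18 FPKM, median 1.58, in Muscat Superior and from 0.13 to 2.69 FPKM, median 0.39, in Victoria. In summer they ran from 3.46 to 14.6 FPKM, median 8.4, in Muscat Superior and from 2.98 to 7.90 FPKM, median 4.83, in Victoria. The cultivars overlapped when stages were pooled, and the log2 differences were 1.82 (SE 0.27, adjusted p = 1.65e-06, edgeR) in winter and 0.79 (SE 0.17, adjusted p = 1.81e-04, edgeR) in summer.

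VIT_215s0046g03550 had a median of 0.55 FPKM in winter Muscat Superior and 0.15 FPKM in winter Victoria, and of 4.15 FPKM in summer Muscat Superior and 2.39 FPKM in summer Victoria. Its log2 differences were 1.59 (SE 0.37, adjusted p = 6.74e-04, edgeR) and 0.66 (SE 0.19, adjusted p = 0.00347, edgeR). VIT_213s0067g01980 differed by 0.99 (SE 0.18, adjusted p = 4.19e-05, edgeR) in winter and 0.88 (SE 0.16, adjusted p = 3.24e-05, edgeR) in summer. Both genes of the pair on chromosome 1 were also higher in Muscat Superior in each crop, and their sum differed by 0.68 (SE 0.14, adjusted p = 1.15e-04, edgeR) in winter and 0.57 (SE 0.13, adjusted p = 6.1e-04, edgeR) in summer.

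Lower in Muscat Superior in both crops were VIT_213s0019g02840, VIT_218s0001g08340 and VIT_205s0020g01170. VIT_205s0020g01170 ran from 470 to 1016 FPKM, median 558, in winter Muscat Superior and from 662 to 1379 FPKM, median 755, in winter Victoria. In summer it ran from 1180 to 2379 FPKM, median 1563, in Muscat Superior and from 1781 to 3626 FPKM, median 2635, in Victoria. The log2 differences were -0.36 (SE 0.09, adjusted p = 0.00100, edgeR) in winter and -0.42 (SE 0.09, adjusted p = 1.49e-04, edgeR) in summer. VIT_213s0019g02840 differed by -1.53 (SE 0.53, adjusted p = 0.0180, edgeR) in winter and -1.11 (SE 0.31, adjusted p = 0.00314, edgeR) in summer, with reads shared between similar genes. VIT_218s0001g08340 differed by -0.41 (SE 0.17, adjusted p = 0.0437, edgeR) in winter, a call that 13 of 45 alternative settings lost, and by -1.16 (SE 0.13, adjusted p = 9.83e-09, edgeR) in summer.

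**Figure D5:**
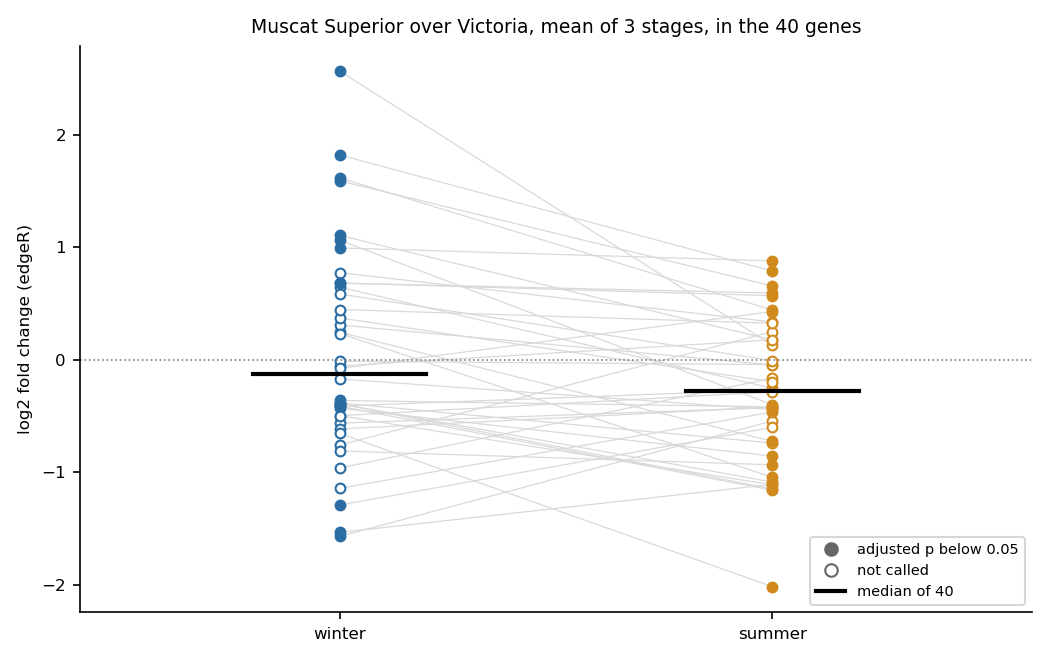
Log2 difference of Muscat Superior over Victoria, averaged over 3 stages, from edgeR for the 40 genes in winter and summer; filled points have an adjusted p below 0.05, the bar is the median and lines join the 2 crops of a gene. The values spread from -1.57 to 2.56 in winter (the highest rests on a group with 0 counts) and from -2.02 to 0.88 in summer around medians of -0.12 and -0.28.

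By stage, the cultivars parted most at the onset of veraison in summer. There 6 of the 40 genes had the higher mean in Muscat Superior and 34 in Victoria, with a median ratio of Muscat Superior over Victoria of 0.511, and 33.1% of all genes past the floor were higher in Muscat Superior. At E-L 38 in summer 25 were higher in Muscat Superior and 15 in Victoria, with a median ratio of 1.21, where 51.2% of all genes were higher in Muscat Superior. In winter the median ratio was 0.706 at E-L 35 and 1.17 at E-L 38. These are means in FPKM without a test. They are the group means the rule used, so the shares of all genes are no fair measure for the 40. The summer Victoria mean at E-L 38 includes replicate 1, which resembled another stage.

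The gap between the crops is set side by side between cultivars and stages next. Every one of these values is a contrast of the ratios that chose the genes, and the limit of 2 was passed by 1.66 to 13.9% of all genes past the summer floor, depending on the combination. The counts past the edgeR threshold (adjusted p below 0.05) are therefore a description, and the share of all genes beside them is no fair measure for them. The difference, winter minus summer in Muscat Superior less the same in Victoria on the log2 scale, was past it in 6 of the 40, all with a smaller gap in Muscat Superior, where 28% of all genes were called, 13.8% higher and 14.2% lower. A larger gap there was called for 0 genes by edgeR, DESeq2 and limma, and 1 gene had one at an unadjusted p below 0.05 (edgeR). The median over the 40 was 0.31. Without the 2 summer Victoria libraries 7 had a smaller and 5 a larger gap in Muscat Superior. The count of larger gaps was 4 when E-L 36 summer Victoria lacked its replicate 1, and 1 without replicate 1 of winter Victoria at E-L 38 or replicate 2 of summer Muscat Superior at E-L 36. With near-identical libraries summed, 3 genes had a smaller gap. On log2(FPKM + 0.1) 65.1% of the calls over all genes were above 0, against 49.3% in edgeR.

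VIT_200s0199g00270, on unplaced sequence, was 2.06, 2.76 and 3.21 times lower in winter at E-L 35, E-L 36 and E-L 38 in Muscat Superior and 2.20, 4.90 and 14.6 times lower in Victoria. Its difference was 0.97. VIT_212s0028g03270 on chromosome 12 was 2.20, 2.41 and 2.18 times lower in Muscat Superior and 5.15, 6.59 and 4.90 times lower in Victoria, with a difference of 1.18. In winter its libraries ran from 51.4 to 113 FPKM in Muscat Superior and from 13.3 to 90.5 FPKM in Victoria. VIT_214s0066g02350 on chromosome 14 was 2.36, 5.39 and 3.85 times lower in Muscat Superior and 12.7, 9.43 and 9.57 times lower in Victoria, a difference of 1.46.

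Between stages the limit of 2 was hardest to pass at E-L 35, with 1.66% of the genes above the summer floor past it in Muscat Superior and 6.19% in Victoria, against 11.8 and 13.9% at E-L 38. Genes chosen at both stages by 1 limit can for that reason have the wider gap at E-L 38, so nothing is read from the direction of the counts. A value below 0 means that the winter level relative to summer was lower at E-L 38 than at E-L 35. In Muscat Superior 11 genes were below 0 and passed and 2 were above and passed, where 27.1% of all genes were called, 13.8% below and 13.2% above. In Victoria 14 passed below 0 and 1 above, where 42.8% of all genes were called, 22.9% below and 19.9% above. The median over the 40 was -0.68 in Muscat Superior and -0.94 in Victoria, and 33 and 31 of the 40 values were below 0. In both cultivars 8 genes passed below 0, where 8.64% of all genes tested did. Without the 2 summer Victoria libraries 12 passed below and 2 above 0 in Muscat Superior, and 18 below and 1 above in Victoria. With near-identical libraries summed, 5 passed below 0 in Muscat Superior and 12 in Victoria. Without winter replicate 3 at E-L 35, 9 passed below 0 in Victoria. On log2(FPKM + 0.1) 36.3% of the calls over all genes were above 0 in Muscat Superior and 61.3% in Victoria, against 48.8% and 46.5% in edgeR, and the median of all genes shifted to 0.20 in Victoria.

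VIT_214s0006g00180 was 2.96, 27.5 and 16.5 times lower in winter at E-L 35, E-L 36 and E-L 38 in Muscat Superior and 2.58, 14.5 and 15.1 times lower in Victoria. The change of the gap was -2.37 in Muscat Superior and -2.71 in Victoria. VIT_211s0052g01190 was 2.24, 24.5 and 21.8 times lower in Muscat Superior, with a change of -3.17. VIT_213s0019g02780 of the run on chromosome 13 was 2.19, 6.93 and 20.8 times lower there, with a change of -3.16. The sum of that run gave -2.91 in Muscat Superior and -2.76 in Victoria.

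In Victoria VIT_200s0199g00270 had 0.79, 1.57 and 1.97 FPKM at E-L 38 in winter, against 13.6, 12.9 and 13.3 FPKM at E-L 35, while in summer it had 16.1, 26.5 and 24.8 FPKM at E-L 38, against 31.2, 27.4 and 29.4 FPKM at E-L 35. The winter stages lay far apart and the summer stages close together, and the change of the gap was -2.90, or -3.10 without the 2 summer libraries.

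VIT_208s0007g07990 on chromosome 8 had 0 counts in all 3 winter Victoria libraries at E-L 38, with 2.67 ± 1.14 CPM (counts scaled to library size, SD, n = 3) at E-L 35 in winter and 9.93 ± 4.4 CPM in summer at E-L 38. With 3 counts per library, 0.335 CPM on average over the group, standing in for 0, it was at least 7.97-fold lower than at E-L 35 in winter and at least 29.6-fold lower than in summer at E-L 38. Its fitted log2 values of -7.89 over the winter course and -8.75 for the change of the gap rest on that 0 and are no bounds, as do its calls as higher in Muscat Superior in winter and as having a smaller gap there. Its counts were whole numbers in 0% of the libraries.

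Above 0 and past the threshold in Muscat Superior was the pair on chromosome 1. VIT_201s0011g05140 had 58.3, 50.8 and 62.0 FPKM at E-L 38 in winter, against 132, 133 and 134 FPKM in summer, and 49.7, 49.35 and 64.2 FPKM at E-L 35 in winter, against 400, 371 and 443 FPKM in summer. Its summer level fell over the stages and its winter course did not pass (adjusted p = 0.563, edgeR), with ratios of 7.42, 2.87 and 2.33 at E-L 35, E-L 36 and E-L 38, and the change of the gap was 1.79. VIT_201s0011g05110 gave 0.87, a value that was no longer past the threshold in 30 of 45 alternative settings. In Victoria the same gene gave -0.92.

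In Victoria VIT_219s0085g01050 on chromosome 19 had ratios of 32.2, 2.51 and 2.47 at the 3 stages. It had 2.77, 0.46 and 0.90 FPKM at E-L 38 in winter, against 0.40, 3.43 and 6.83 FPKM in summer, so the crops overlapped at that stage, while at E-L 35 it had 3.56, 1.81 and 1.71 FPKM in winter, against 85.2, 62.0 and 90.1 FPKM in summer. The change was 3.39, or 2.82 without the 2 summer libraries, and the call was lost in 4 of 45 alternative settings, among them those without summer replicate 1 at E-L 38, winter replicate 3 at E-L 35 or winter replicate 1 at E-L 38.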

How the data were processed

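The files hold 36 tables, 1 per library. Per the file headers, each gives the authors' expected count (reads estimated per gene, fractional for shared reads), FPKM and a transcript length in bases. Per the submitters' processing notes reads were aligned with Bowtie, and per the series text the authors compared crops with DESeq2. Not given in the sources used here are versions, genome build, annotation and counter. Per the labels, each group had 3 biological replicates. Genes without a line in a table were entered as 0, and 0 other per-sample columns were left unused. The deposited FPKM, set against FPKM recomputed from the expected counts, had a median quotient of 0.996 to 0.999 by library.

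The 40 genes, their rule and the tests were chosen with earlier results of these data known. Levels, ratios, neighbours and shares were computed in Python 3.11.15 with pandas 2.3.3. Neighbours follow the chromosome and number in the identifiers. Deposited expected counts were rounded to whole numbers and tested in R 4.3.3 with edgeR 4.0.16, as a quasi-likelihood test with robust dispersion, TMM normalization and the filterByExpr filter. The model held the means of 12 groups over 36 libraries (24 residual degrees of freedom). After filtering, 19736 genes were tested, among them all 40. Adjusted p-values are Benjamini-Hochberg values over all genes tested, and a call is an adjusted p below 0.05. The standard error is the log2 fold change divided by the square root of F. The procedure was tested on simulated data.

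Named genes are the 6 with the largest smallest ratio, the 6 with the highest summer mean, 3 on each side of the threshold, up to 3 in each direction for each tested comparison by shared calls and size or by lowest p, and the members of the 3 runs; genes at the summer floor, beside the runs or lost without a library were added after their values were seen. Alternatives were DESeq2 1.42.0, DESeq2 size factors in edgeR, no filter, limma 3.58.1 on log2(FPKM + 0.1) and on log2(FPKM + 1), a replicate block, each library left out in turn, near-identical libraries summed, and other cutoffs of the rule. Leaving out 3 libraries and summing the genes of a run were added after seeing the data. Depth limits low levels: 3 counts corresponded to 0.161 to 0.533 CPM by library. The lists of gene descriptions and cell type markers planned were not run, because the identifiers matched 0 entries of the gene table at hand, which belongs to another assembly. Same-numbered replicates did not pair, as stated with the alternatives.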

Additional observations from a re-analysis of the deposited data

Results flagged for a closer look

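The results below were picked out because the gap between the crops differed between cultivars or stages by edgeR (adjusted p below 0.05). These are contrasts of the ratios that chose the genes, with a limit that was harder to pass at E-L 35 than at E-L 38, so they are a description and nothing is read from their direction. Between cultivars 6 of the 40 genes had a smaller gap in Muscat Superior. VIT_200s0199g00270, VIT_212s0028g03270 and VIT_214s0066g02350 led them with differences of 0.97, 1.18 and 1.46 on the log2 scale.

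Between stages in Muscat Superior, 2 genes had a narrower gap at E-L 38 than at E-L 35 and 11 a wider one. The values were 1.79 for VIT_201s0011g05140 and 0.87 for VIT_201s0011g05110, and -2.37 for VIT_214s0006g00180, -3.16 for VIT_213s0019g02780 and -3.17 for VIT_211s0052g01190. In Victoria, 1 gene had a narrower gap and 14 a wider one. The values were 3.39 for VIT_219s0085g01050, and -2.90 for VIT_200s0199g00270, -2.71 for VIT_214s0006g00180 and -8.75 for VIT_208s0007g07990, whose value rests on a group with 0 counts and is no bound. Groups of 3 libraries were too small for a test of single outlying libraries.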

How the results depend on the processing

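The list depends on its cutoffs: it held 40 genes, and 68 without the summer floor, 158 at a ratio of at least 1.5 and 7 at a ratio of at least 3, and 32 to 45 with 1 library left out. On CPM with TMM factors it held 36 genes, 32 of them shared, and with group medians 43, 32 of them shared. It held 34 without the 2 and 34 without the 3 libraries that stood apart.

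In the tests the following counts moved by more than 1.5 times. With DESeq2, 1 gene rose in winter Victoria (0 in edgeR). Genes lower in summer Victoria numbered 15 and 16 with limma on log2(FPKM + 0.1) and on log2(FPKM + 1) (9 in edgeR). On log2(FPKM + 1), 2 genes had a narrower and 8 a wider gap at E-L 38 in Victoria (1 and 14 in edgeR). In Muscat Superior 1 gene had a narrower gap without the filter, on either FPKM scale, with near-identical libraries summed and without the 3 libraries (2 in edgeR). Summing near-identical libraries gave 6 genes lower in winter Muscat Superior (13), 1 lower than Victoria in winter (5), 3 with a smaller gap in Muscat Superior (6), 0 with a narrower gap in Victoria (1) and 5 with a wider gap in Muscat Superior (11); it leaves 30 libraries. Without the 2 and the 3 libraries, 2 and 2 genes rose in winter Muscat Superior (0), 12 and 13 rose in summer Muscat Superior (7), 10 and 10 were lower in Muscat Superior in winter (5), and 5 and 4 had a larger gap there (0).

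With 1 library left out, genes lower in winter Muscat Superior numbered 6 to 13, 6 without replicate 1 at E-L 35 or replicate 2 at E-L 38 and 8 without replicate 3 at E-L 38. Genes lower in Muscat Superior in winter numbered 1 to 6, genes with a larger gap in Muscat Superior 0 to 4, and genes with a narrower gap 0 to 1 in Victoria and 1 to 2 in Muscat Superior. Genes with a wider gap in Victoria numbered 9 to 15, with 9 without winter replicate 3 at E-L 35. The causes were not tested. Of 1980 values of the genes named for their calls under 45 alternatives, 1911 kept their side of the threshold. A call was lost in 58 and gained in 11, and 0 changed sign on a call. All 44 results of these genes kept their call status without the 2 libraries, and 38 with near-identical libraries summed. Genes named only for their level, for the threshold or for a run, among them the run on chromosome 4, are not included.

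The replicate numbers did not pair the libraries. Same-numbered libraries of different groups deviated from their group means with a median correlation of -0.001, against 0.0006 for different numbers, and in 1 of 66 pairs of groups all 3 correlations were over 0.1. In 1 of the 66 every library correlated best with its own number. With the replicate block, 22 genes fell in winter Victoria and 12 in winter Muscat Superior, and 8 rose in summer Muscat Superior, and no count moved by more than 1.5 times.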
